A study of Mus musculus with 5 samples.

Results

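The late-registered miRNAs of mouse kidney were followed through ischemia-reperfusion injury (IRI), in which the blood supply of both kidneys is clamped and then released. They are the miRNAs whose registry number is 1000 or above. The array held 444 such miRNAs beside 5 that the rule leaves out (miR-3963, miR-6366, miR-2861, miR-3960 and miR-5115). Members were chosen by detection, that is, by a call of the scanner software on at least 1 of the 5 arrays, and 100 of the 444 passed. They stood among 334 detected miRNAs of 1247 on the array, of which 229 were numbered below 1000 (the let-7 family included). Detection uses the signal itself, so counts of detected members are descriptions.

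Kidney RNA came from healthy male C57B/6 mice of 20 to 25 g that had either a sham operation without the clamp or 30 min of bilateral warm ischemia, followed by 6, 12, 24 or 48 h of reperfusion. The labels give 8 mice per time point and 1 Agilent 1-colour array (Release 19) for each of the 5 groups, and whether RNA was pooled is not given in the sources used here. The spread between animals is therefore unknown, groups could not be tested against each other, and each error below is the scanner software's error within 1 array. The sham and 6 h arrays shared slide 1 and 1 scan, the 12 and 24 h arrays shared slide 2 and 1 scan, and the 48 h array was on slide 2 but scanned apart. Slide and time cannot be told apart between sham and 12, 24 or 48 h. Values given as a list of 5 below run in the order sham, 6, 12, 24 and 48 h, and lists of 4 start at 6 h. The 4 spike-in controls were 1.05, 2.08, 2.13 and 2.06 times their sham level by geometric mean at 6, 12, 24 and 48 h, with single controls between 1.62 and 3.20 times at 12 h, between 1.53 and 2.98 at 24 h and between 1.55 and 2.43 at 48 h. Sums scaled by them are given beside the sums as deposited. All 6 listed miRNAs of kidney tubules were detected on every array. Of the 2 listed for endothelium and on the array, miR-126-3p was detected throughout and miR-126-5p in sham alone, at 3.82 units. Of the 2 for red blood cells, miR-451a was detected throughout and miR-144-3p on no array. In bulk tissue, fewer cells of a type and less RNA per cell cannot be told apart.

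A miRNA is a short RNA that guides repression of messenger RNAs, mainly through its seed, bases 2 to 8 from the 5′ end. Registry numbers follow the order of registration. Low numbers belong mostly to conserved and cloned miRNAs with many family members, and high numbers mostly to products found later by small-RNA sequencing, many of them species-specific, weakly supported, or derived from introns, repeats and other RNAs.

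RefSeq (GRCm38.p6) held a mature sequence for 77 of the 100 members and for 190 of the 229 miRNAs numbered below 1000. The members with the highest sham signal and a RefSeq sequence were miR-3473b, miR-5100, miR-3968, miR-5126, miR-6368 and miR-1224-5p, shown here since their values are given one by one below. Capitals mark the seed.
miR-3473b: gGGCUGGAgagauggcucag
miR-5100: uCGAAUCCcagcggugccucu
miR-3968: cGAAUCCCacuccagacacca
miR-5126: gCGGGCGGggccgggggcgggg
miR-6368: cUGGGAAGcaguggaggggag
miR-1224-5p: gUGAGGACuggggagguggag
They map to chr10:41670774-41670793 (+, within the span of Ccdc162), chr11:60728698-60728718 (+, Mief2), chr11:115447969-115447989 (-, Trim80), chr1:84695890-84695911 (+, Dner), chr13:28710796-28710816 (-, the noncoding gene 2610307P16Rik) and chr16:20604452-20604472 (+, Vwa5b2), in that order. RefSeq sequences were not found for miR-5109 and miR-6243, so their longest array probes are given, which are DNA and run complementary to the RNA they capture.
miR-5109 probe: tcggattcccctgg
miR-6243 probe: cgttcagtcataatccc

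Of the 77 members with a RefSeq sequence, 60 (77.9%) lay within the span of a protein-coding gene, against 96 of 190 (50.5%) for miRNAs numbered below 1000. Their mature sequences were richer in G and C, with a median of 61.9% against 47.9%, at the same median length of 22 bases. Shared seeds were rare. Only 3 of 77 members had the seed of another detected miRNA, against 75 of 190 below 1000. The 3 were miR-3473b and miR-3473e, with the same seed GGCUGGA, and miR-6394, whose seed CCCUGAG is also that of miR-125a-5p, miR-125b-5p and miR-351-5p.
miR-6394: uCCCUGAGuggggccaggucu

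The members held a larger share of the array signal after injury. Signal here is the sum of the detected probes that belong to a miRNA, in scanner units, and a share does not move when a whole array is brighter. The share of the 100 members was 12.7% ± 0.456 (scanner error) in sham and then 27.3% ± 0.827, 23.5% ± 0.769, 16.3% ± 0.521 and 17.0% ± 0.66. It was thus highest at 6 h and above sham on all 4 injury arrays, by several times the scanner error. The 229 miRNAs numbered below 1000 held 44.8% ± 1.18 in sham, followed by 43.3% ± 0.875, 35.2% ± 0.865, 43.1% ± 1.02 and 37.6% ± 1.1. The rest belonged to the 5 miRNAs left out, whose own share was lowest, 29.4% ± 1.17, at 6 h. With those 5 taken out of the total, the share of the members was 22.1%, 38.7%, 40.01%, 27.4% and 31.2%, so that the highest array became 12 h in place of 6 h, though 6 and 12 h differed by little more than their scanner error.

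**Figure D1:**
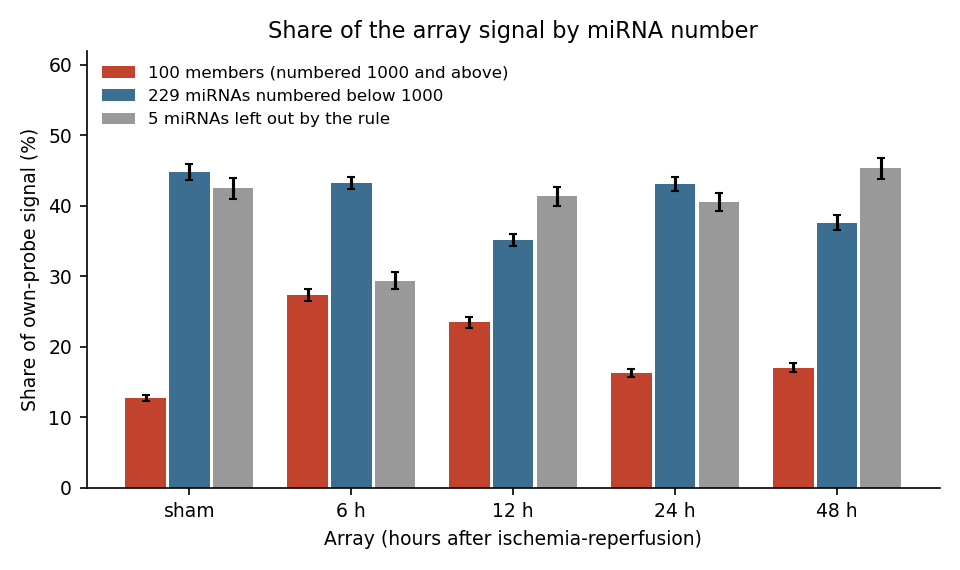
Share of the own-probe signal of each array (%) held by the 100 members, the 229 miRNAs numbered below 1000 and the 5 miRNAs left out by the rule. Bars are single arrays and error bars are scanner errors. The bar of the members is 12.7% in sham and 27.3% at 6 h.

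In scanner units the members summed to 8280.0 ± 239 in sham and to 21118 ± 725, 29223 ± 925, 22353 ± 609 and 12827 ± 429.8 on the injury arrays. The log2 ratio of the sum over sham was 1.35, 1.82, 1.43 and 0.63 in time order, while it was 0.19, 0.59, 1.02 and -0.04 for miRNAs numbered below 1000. The latter were highest at 24 h, the members at 12 h. Scaled by the spike-ins, the sums of the members gave 1.28, 0.77, 0.34 and -0.41, so the direction at 48 h turned with the scaling. From sham to 6 h, on the same slide, the members gained 12838 units, miRNAs numbered below 1000 gained 4202, and the 5 left out changed by -4988.

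A few members carried this signal. miR-5109, miR-3473b and miR-6243 together made up 58.3%, 74.7%, 66.3%, 57.7% and 70.0% of the members' signal. Their own share of the array went from 7.40% ± 0.366 in sham to 20.4% ± 0.814 at 6 h. The other 97 members held 5.30% ± 0.193, 6.91% ± 0.205, 7.91% ± 0.245, 6.90% ± 0.209 and 5.11% ± 0.194, so their 48 h share lay within scanner error of sham.

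The signal of miR-5109 was 1569 ± 120.3 in sham and 7114 ± 539.8, 9244 ± 714, 4809 ± 369 and 4235 ± 329 thereafter. As deposited, all 4 injury arrays lay above sham, with log2 ratios of 2.18, 2.56, 1.62 and 1.43, and 12 h was the highest. Spike-in scaling takes 0.07, 1.05, 1.09 and 1.04 from these. All 4 then stay above sham, and 6 h becomes the highest. The gain of 4.53-fold at 6 h was on the slide of the sham array, with a log2 ratio of 2.18 ± 0.16. No RefSeq entry was found for it. For miR-3473b, the brightest member in sham, the values were 2410.4 ± 172, 5471 ± 389.5, 6299.6 ± 448, 5345 ± 380.3 and 2833 ± 201. It was 2.27-fold higher at 6 h, and at 48 h its distance from sham was 1.18-fold as deposited. miR-6243 read 844 ± 67.4, 3199 ± 256, 3825 ± 311, 2747 ± 220.0 and 1911 ± 156. As deposited, its 48 h signal was 2.27-fold that of sham, a log2 ratio of 1.18 ± 0.16. Spike-in scaling takes 1.04 log2 units from every 48 h ratio, which leaves miR-6243 within scanner error of sham.

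The next members in brightness went 2 ways at 6 h. miR-5126, made up only of G and C, had 357 ± 25.4 in sham, then 1206 ± 85.4, 1914 ± 136, 1508 ± 107 and 659.6 ± 46.8. miR-1224-5p, a mirtron product cut from an intron of Vwa5b2, had 195 ± 16.3, 835 ± 72.1, 971 ± 82.0, 758 ± 63.4 and 420.4 ± 35.6. Both were highest at 12 h and above sham on all injury arrays as deposited. Their log2 ratios were 1.76, 2.42, 2.08 and 0.89 for miR-5126 and 2.09, 2.31, 1.95 and 1.11 for miR-1224-5p. Spike-in scaling takes 0.07, 1.05, 1.09 and 1.04 from these. The highest ratio of both is then at 6 h, and 48 h lies close to sham. In contrast, miR-5100 had 811 ± 70.6, 445 ± 38.7, 1385 ± 119.5, 1452 ± 126 and 813 ± 71.5. miR-3968 went with it, at 434 ± 39.9, 264 ± 24.2, 634 ± 56.4, 709 ± 63.2 and 416 ± 39.4. As deposited, the 6 h array was the lowest of the 5 for both, with log2 ratios of -0.86 ± 0.18 and -0.72 ± 0.19, and their 48 h values equalled sham within scanner error. With spike-in scaling the log2 ratios at 48 h were -1.04 and -1.10, below those at 6 h of -0.93 and -0.79. miR-6368 was 293 ± 21.2 in sham and 237 ± 17.3 at 6 h, then 455 ± 33.1, 459.5 ± 33.5 and 194 ± 13.9.

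**Figure D2:**
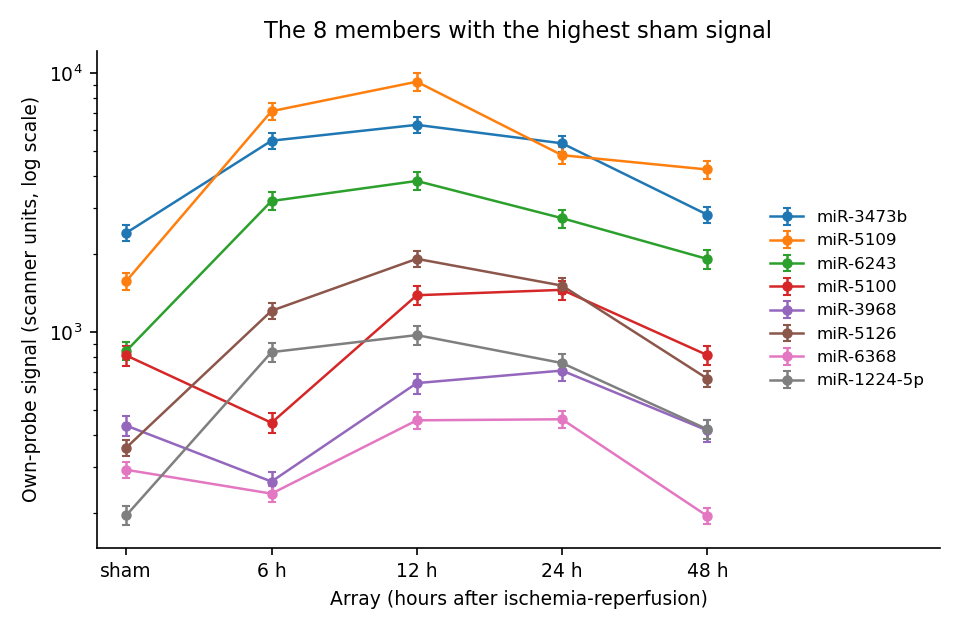
Own-probe signal (scanner units, log scale) of the 8 members with the highest sham signal on each of the 5 arrays, with scanner errors. miR-5109, miR-3473b, miR-6243, miR-5126 and miR-1224-5p are higher at 6 h than in sham, and miR-5100, miR-3968 and miR-6368 are lower.

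miR-5100 and miR-3968 share a word of 9 bases, set in capitals. It is the longest stretch common to these 2 and was taken from them, and no other of the 77 members holds it. It was held by 0 of the 190 lower numbers with a RefSeq sequence. No such search was made among those, so the counts are not a comparison.
miR-5100: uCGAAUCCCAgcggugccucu
miR-3968: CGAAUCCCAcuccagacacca
The same letters as DNA, CGAATCCCA, occur on either strand in 34 of 32851 RefSeq promoter windows (0.103%). Promoter DNA is no background for mature miRNAs, so this share does not say how unusual the shared word is. miR-3968 also ends in CCA, the triplet that closes mature tRNAs. Of the members 2 of 77 end so, and of the lower numbers 3 of 190. Another low member at 6 h was miR-5097, with 147 ± 11.6, 65.6 ± 5.51, 149.8 ± 11.9, 157 ± 12.8 and 136 ± 11.1. Its 4 other signals lay close together.

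The 40 members detected on all 5 arrays allow ratios without an undetected array. Their median log2 ratio over sham was 0.81, 1.42, 1.62 and 0.02 in time order. For the 137 miRNAs numbered below 1000 and detected on all arrays the medians were 0.13, 0.41, 0.90 and -0.33. The difference between the sets, which no scaling of a whole array can move, was 0.68 ± 0.26, 1.01 ± 0.26, 0.72 ± 0.26 and 0.35 ± 0.28, where the error is that of 2 single ratios of median precision. Members above the median of the lower numbers were 28, 33, 33 and 32 of 40. The 6 h difference was on 1 slide. It came down to 0.091 after normexp background correction with an offset of 50, to 0.22 with the total gene signal of the software and to 0.40 among miRNAs in the members' sham range (32 members, 100 others).

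Members also differed among themselves at 6 h. The interquartile range of their log2 ratios was 1.55 units, against 0.33 for the lower numbers, so members were spread more widely. The share above sham was alike, with 30 of 40 members (75%) and 103 of 137 lower numbers (75.2%). At 24 h the ranges were 0.89 and 0.68. All 40 members were above sham at 24 h as deposited, as were 136 of the 137 lower numbers. Scaling matters here, because the median of the 182 miRNAs detected on all arrays was itself 0.16, 0.55, 1.03 and -0.23 over sham in time order, and spike-in scaling takes 0.07, 1.05, 1.09 and 1.04 from these.

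**Figure D3:**
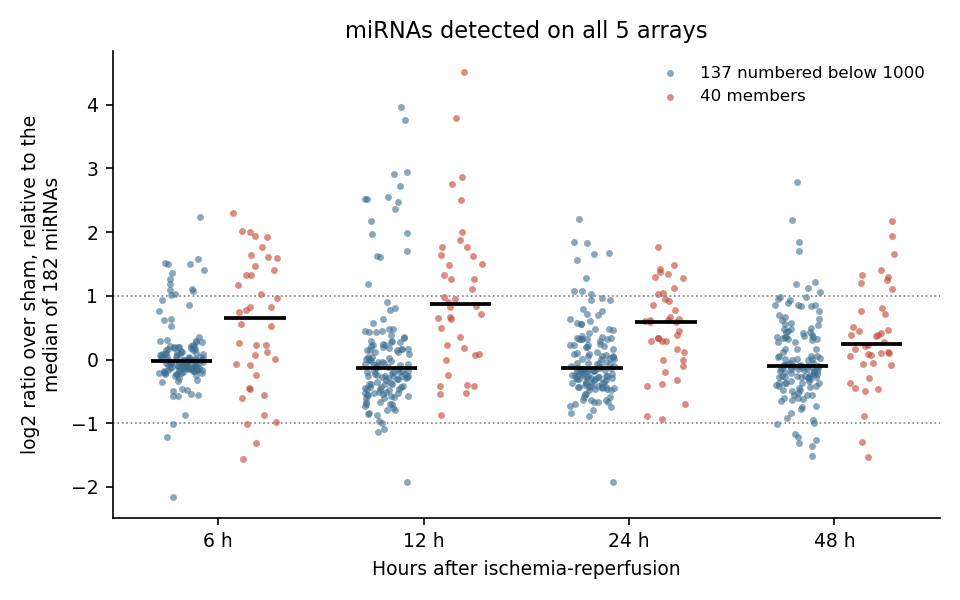
Log2 ratio over sham minus the median of the 182 miRNAs detected on all 5 arrays, for 40 members and 137 miRNAs numbered below 1000. Each point is a miRNA, black bars are medians, and dotted lines mark the 2-fold limits. The bar of the members is the higher at each time, and their spread at 6 h is 1.55 units between quartiles against 0.33.

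Relative to that median, a member was counted as changed at 2-fold or more. At 6 h, 15 of 40 members were above and 3 below, where over all 182 miRNAs 17.6% were above and 3.3% below. At 12 h the members counted 17 above and 0 below (all miRNAs 20.3% and 2.2%). At 24 h they were 10 and 0 (12.6% and 0.549%), and at 48 h 9 and 2 (11% and 5.49%). Members are part of the 182, and the lower numbers alone had 14, 17, 10 and 8 of 137 above. The 2-fold limit matters at 24 h, since 1 member passed a 3-fold limit there. After normexp background correction, 7, 9, 1 and 2 members were above, and quantile normalization left 4 above at 48 h. In the processed table, 5, 4 and 4 members were below at 6, 12 and 24 h. These alternative counts were made for members alone. The share over all miRNAs under the same settings is not known, so they cannot be set against a background.

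The same members recurred, though all 4 comparisons share the sham array. miR-1187, miR-3082-5p, miR-5126 and miR-6538 were above at all 4 times, against 1 of 137 lower numbers. Another 8 members were above at 3 times, 3 at 2 times and 5 once, and 20 of 40 never. Of the 137 lower numbers, 7 were above at 3 times, 9 at 2 times and 6 once, and 114 never. The share above at 2 times was thus close, 7.5% of members and 6.57% of lower numbers. miR-6538, whose probe is G and C alone, had the highest ratio of the 40 at 6 h and at 24 h. It read 12.3 ± 1.93, 67.8 ± 5.28, 121 ± 9.2, 86.3 ± 7.38 and 25.8 ± 2.97, and every injury array was more than 2-fold above sham as deposited.
miR-6538: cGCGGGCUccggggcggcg
It maps to chr12:26414970-26414988 on the minus strand, within Rnf144a. miR-1897-5p (23.3, 79.3, 96.4, 133 and 25.5) and miR-5105 (119, 335, 487, 474 and 173) had their high values from 6 to 24 h. miR-6360 was highest at 6 h, with 23.7 ± 2.4 in sham, 106 ± 7.85 at 6 h and 21.0 ± 2.74 at 48 h.

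**Figure D4:**
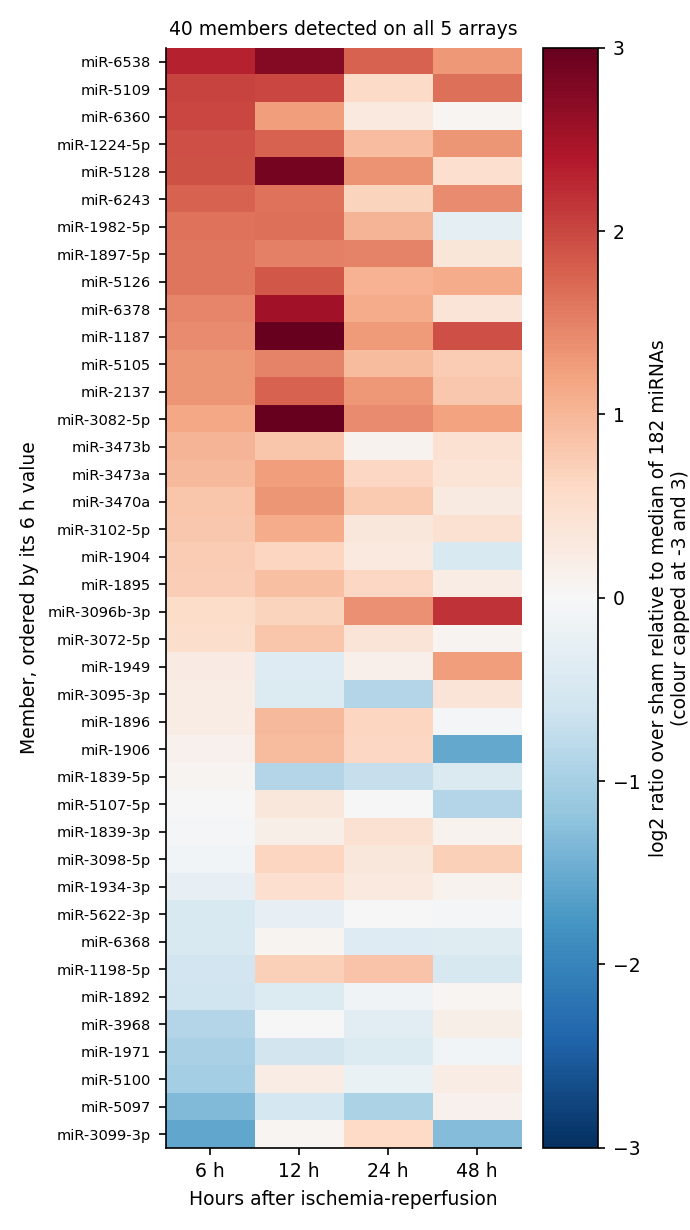
Log2 ratio over sham relative to the median of 182 miRNAs for each of the 40 members detected on all arrays (rows, ordered by the 6 h value) at 4 times (columns), with colour capped at -3 and 3. Red runs along the upper rows at 6 and 12 h, and miR-3099-3p, miR-5097 and miR-5100 form the blue end at 6 h.

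A pair of UG-rich members stood out at 12 h. miR-3082-5p was 8.65 ± 1.49, 21.7 ± 2.72, 289 ± 22.1, 47.3 ± 5.38 and 16.9 ± 2.35. miR-1187, the lowest number among the members, was 6.05 ± 1.35, 17.9 ± 2.45, 122 ± 9.37, 29.9 ± 4.49 and 19.8 ± 2.72. Both were highest at 12 h by far. Against the 24 h array on the same slide and scan, the 12 h signal was 6.12-fold and 4.08-fold higher. They share a run of 10 bases, in capitals, the longest stretch common to these members and taken from them. Of the 190 lower numbers 1 also holds it, but no such search was made among those.
miR-1187: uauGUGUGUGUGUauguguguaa
miR-3082-5p: gacagaGUGUGUGUGUcugugu
The run GTGTGTGTGT lies on either strand in 487 of 32851 promoter windows (1.48%), which are no background for mature miRNAs. The 8 miRNAs of the repeat-rich miR-466, miR-467, miR-669 and miR-297 families detected on all arrays were likewise all highest at 12 h, with median log2 ratios of 3.17 at 12 h and 1.37 at 24 h. Another member, miR-1196-5p, was 163 ± 11.9 at 12 h, 66.8 ± 6.13 at 24 h and 8.13 ± 1.8 in sham, and was not detected at 6 h. The total gene signal column of the software gave miR-1187 336 units in sham, 55.6 times its own probes, and the same signal as its own probes on the injury arrays, so its ratios over sham were negative there.

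Another word is shared by 3 members of the miR-3473 group and miR-5128. Capitals mark the 9 bases GAGAUGGCU, the longest stretch common to these 4. The word was taken from these 4, and no other of the 77 members with a sequence holds it. It was held by 0 of 190 lower numbers, among which no such search was made, so the counts are not a comparison.
miR-3473b: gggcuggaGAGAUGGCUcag
miR-3473a: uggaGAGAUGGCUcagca
miR-3473e: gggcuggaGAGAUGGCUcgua
miR-5128: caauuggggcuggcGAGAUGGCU
As DNA, GAGATGGCT, the word was on either strand of 287 of 32851 promoter windows (0.874%), again no background for mature miRNAs. The sequence under the miR-3473b probe is also contained in miR-3473a, so the 2 signals are not independent. miR-3473a was 44.2 ± 4.36, 96.6 ± 9.0, 155 ± 14.2, 139 ± 13.2 and 50.4 ± 5.3. miR-5128 was 7.42 ± 1.42, 31.3 ± 3.46, 79.3 ± 7.25, 38.4 ± 4.74 and 9.05 ± 1.87. For both, 12 h was the highest array and 48 h lay within scanner error of sham as deposited. With the total gene signal, the 12 h log2 ratio of miR-5128 was -2.20. miR-3473e was detected at 6, 12 and 24 h only, at 10.6, 15.1 and 10.8, and miR-3473d at 24 h only, at 26.0.

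Among the 40 members detected on all arrays, the highest 24 h ratios after miR-6538 were those of miR-1897-5p, miR-3082-5p, miR-3096b-3p and miR-5128. miR-3096b-3p differed in time from the others, with 20.3 ± 2.38, 33.4 ± 3.56, 47.5 ± 4.9, 108 ± 10.04 and 78.0 ± 7.19, the highest 48 h ratio of the 40. At the other end, miR-3095-3p was nearly level, at 30.6 ± 2.77, 40.1 ± 3.53, 33.5 ± 3.71, 33.9 ± 4.59 and 33.9 ± 3.33. miR-1839-5p was between 7.48 ± 1.31 and 15.1 ± 2.35, and miR-1971 between 9.8 ± 2.19 and 26.6 ± 4.34.

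Low values at 48 h were those of miR-1906 and miR-3099-3p. miR-1906, within the imprinted gene Meg3, was 19.7 ± 2.23, 23.8 ± 2.72, 55.7 ± 4.98, 61.4 ± 5.99 and 5.82 ± 1.73. With the total gene signal it was 37.1 at 48 h, and the log2 ratio was 0.92. miR-3099-3p was 43.0 ± 3.53, 16.3 ± 2.39, 66.0 ± 5.6, 133 ± 10.4 and 14.9 ± 2.55, the lowest member at 6 h and a 24 h signal 8.13-fold that of 6 h.
miR-3099-3p: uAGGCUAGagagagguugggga
It maps to chr7:6803638-6803659 on the plus strand, within Usp29. miR-5107-5p had a log2 ratio of -1.11 at 48 h but lay within 2-fold of the common median.

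Within slide 2 the difference between the sets was below 0, unlike that from sham to 6 h within slide 1, which was 0.68 ± 0.26. From 12 to 24 h the median log2 change was 0.05 for members and 0.54 for lower numbers, a difference of -0.49 ± 0.25. From 12 to 48 h it was -1.48 against -0.73, a difference of -0.75 ± 0.27. From 24 to 48 h it was -1.45 against -1.21, and the difference of -0.25 ± 0.28 lay within scanner error. The 48 h array was scanned apart from those of 12 and 24 h. Only 9 of the 40 members were above the median of the lower numbers from 12 to 24 h. Accordingly, 15 members had their highest signal at 12 h, 23 at 24 h and 2 at 6 h, while 116 of 137 lower numbers had theirs at 24 h and 17 at 12 h. With spike-in scaling, 21 of the 40 members were highest at 6 h, 7 in sham, 4 at 12 h and 8 at 24 h. Of the 137 lower numbers, the same scaling put 54 highest at 6 h, 40 in sham, 13 at 12 h and 30 at 24 h.

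More members were called detected in the first day. Counts were 53, 67, 83, 89 and 44, against 161, 176, 191, 204 and 148 of the 229 lower numbers. Members detected on all arrays were 40 of 100, against 137 of 229 (59.8%). Another 12 members were detected at 6, 12 and 24 h but neither in sham nor at 48 h, as were 10 of the 229 lower numbers. A further 9 members were detected at 12 and 24 h alone. This pattern was not counted for the lower numbers, so it cannot be set against a background. The 12 and 24 h arrays had the most detected miRNAs of any kind, 279 and 298 against 219 in sham. Among the 12, miR-3102-5p.2-5p was 23.1 at 6 h, 57.0 at 12 h and 52.9 at 24 h. Its undetected sham probes stand for at most 5.95 units, 3 times their error, and it entered the 12 by being detected at 12 h and undetected in sham. Its hairpin partner miR-3102-5p was detected throughout, at 36.1, 70.9, 114, 93.9 and 42.0. miR-6392-3p was 27.1, 43.0 and 55.2 on the same 3 arrays. Of 21 members seen on 1 array alone (36 of the 229 lower numbers, 15.7%), 15 were seen at 24 h (8.83 to 26.0 units), 5 at 12 h and 1 at 6 h. The brightest were miR-3473d and miR-2183 at 24 h, miR-6351 and miR-5131 at 12 h, and miR-3096a-5p at 6 h. The effective feature size was 0.776 at 24 h, 0.774 at 12 h and 0.6 on the other arrays, a factor that enters the signal.

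**Figure D5:**
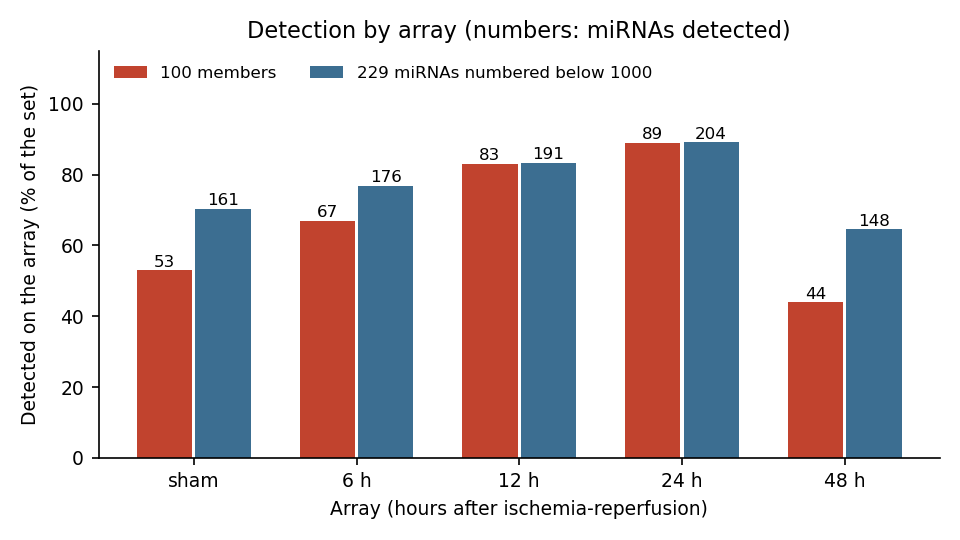
Percent of the 100 members and of the 229 miRNAs numbered below 1000 that were called detected on each array, with the number of miRNAs above each bar. The members go from 53 in sham to 89 at 24 h and 44 at 48 h.

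Members at the edges of the rule were dim. Just inside the detection limit, where a probe must exceed 3 times its error, were miR-5127 (3.04 times), miR-1900 (3.05) and miR-3067-3p (3.12). Just outside were miR-3113-5p (2.99), miR-6370 (2.85) and miR-6387 (2.84). By number, miR-1187 was the first inside and miR-877 the last outside. Median signal of detected members as deposited was 19.7 in sham (53 members) and 40.5 at 12 h (83 members), which are different sets. For the detected lower numbers it was 38.1 and 50.7. No more than 22 members passed 100 units on any array.

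Some hairpins gave more than 1 product among the members. miR-1224-3p was 12.5 at 24 h and undetected elsewhere, while miR-1224-5p was 758 there. miR-3099-5p was detected at 24 h only, at 22.8 against 133 for the 3p arm. The arms of miR-1839 were closer, with 9.35, 9.97, 15.4, 26.1 and 8.59 for miR-1839-3p and 11.9, 14.0, 9.46, 15.1 and 7.48 for miR-1839-5p. Other hairpins of this kind were miR-1894, miR-1934, miR-3058, miR-3098, miR-3102 and miR-6418. These are signals of different probes and are not compared as amounts.

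Some properties moved with the sets. The longest probes of the 40 members detected throughout held a median of 64.3% G or C over 14 bases, against 47.6% over 18 bases for the 137 lower numbers. Within probes under 60% G or C (10 members, 116 others), the difference of medians was 0.79, 0.95, 0.70 and 0.92 in time order. Within probes of at least 60% (30 members, 21 others) it was 0.72, 0.82, 0.47 and 0.59. This split was chosen after seeing the data, and probe length was not matched within it. The part of probe composition in the difference between the sets was not tested. Where a member had 2 detected probes, both gave the same direction over sham for 29 of 30 members at 6 h, 28 of 30 at 12 h, 30 of 30 at 24 h and 25 of 28 at 48 h. For the lower numbers the counts were 87 of 104, 91 of 101, 106 of 106 and 90 of 94. All 40 members and 136 of 137 lower numbers were above sham at 24 h as deposited, so the 24 h agreement carries little weight. At 12 h 39 of 40 members and 113 of 137 lower numbers were above sham, so the members' agreement carries little weight there too.

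Markers of blood cells were higher on some injury arrays as well. miR-451a of red blood cells was 159, 500.3, 234, 538 and 105, and miR-144-3p was not detected on any array. The member miR-3107-5p, later named as a product of miR-486, another miRNA of red blood cells, was 4.45, 19.2, 8.08 and 15.9 on the first 4 arrays and was not detected at 48 h. The 6 and 24 h arrays were the high ones for both. Of leukocyte miRNAs 2 of 5 on the array were detected throughout, and their list summed to 47.8, 76.7, 111, 70.7 and 61.2, mainly through miR-223-3p. The tubule list summed to 3184, 3611, 3957.5, 4985 and 2407. The part of these cells in the members' signals was not tested.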

How the data were processed

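Kidney miRNAs were measured on 5 Agilent 1-colour arrays, 1 for each group of the labels. The intensity of every spot, probe and miRNA was deposited as written by Agilent Feature Extraction 10.7.1.1, subtracted for background and not normalized between arrays. A second table that the authors deposited holds processed log2 values, whose making, scale and centring are not given in the sources used here and which served as an alternative only. A probe was detected above 3 times its error. For each miRNA, the signals of its own detected probes were summed once per probe, with no scaling, and errors were added in squares. Ratios used the 182 miRNAs detected on all arrays. Each array had 52044 spots. Precision was limited by having few arrays. The members, lists and named miRNAs were chosen with earlier results of these data known. Named miRNAs were the 8 highest in sham, the 8 with the largest gain at 24 h, the 5 highest and 5 lowest ratios at 24 h, 3 and 3 at the other times, the brightest seen on 1 array, those with shared seeds or hairpins, and those at the edges of the rule. miRNAs shown for a shared word, a blood cell or a 12 h peak were chosen after their values were seen. Alternatives were the software's total gene signal, spike-in, 75th percentile and quantile scaling, 1 effective feature size, normexp correction, the processed table, brighter probes, a common detection level, other members or compared miRNAs, and a 3-fold limit. The summaries were tested on simulated data. Python 3.11.15, pandas 2.3.3, R 4.3.3 and limma 3.58.1 were used.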

Additional observations from a re-analysis of the deposited data

Results flagged for a closer look

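Signals outside the values compared above were higher on injury arrays than on the sham array. Relative to sham, the geometric mean of the 4 spike-in controls was 1.05, 2.08, 2.13 and 2.06 at 6, 12, 24 and 48 h. The total gene signal column exceeded the members' own detected probes by 5296 units in sham, and by 26445, 18002, 16779 and 6249 in time order. In sham, 15 of 53 detected members had a column value more than 1.5 times their own probes, and at 24 h 31 of 89. With 1 array per group, no array could be compared with others of its own group.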

How the results depend on the processing

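No paired analysis was possible because there was a single array for every group, and for the same reason no array could be left out. Over 18 alternatives, 112 of 204 summary values stayed within 1.96 scanner errors (counts within 1.5 times). Of 644 alternative ratios of single named members, 299 stayed within that limit and 336 moved beyond it. The other 9 belonged to ratios counted as changed and turned in sign. The difference of medians between members and lower numbers was above 0 in 40 of 40 alternative values, from 0.091 to 1.09. These values reuse the same 5 arrays, and some settings only change which miRNAs are compared, so they are not independent. The lowest, at 6 h, was smaller than the 0.26 error of the 6 h difference. In each case below the cause was not tested, except where the alternative itself removes or adds miRNAs or rescales arrays. Counts of members above or below were made for members alone, without the share over all miRNAs.

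With the total gene signal, the share of the members was 17.3, 39.9, 29.8, 21.9 and 21.3% from sham to 48 h, the log2 ratio of the sum was 1.81 at 6 h and 0.49 at 48 h, the median at 6 h was 0.38, and members at least 2-fold below were 7 at 6 h, 4 at 12 h and 2 at 24 h. That column gave miR-1187 ratios of -4.23, -1.46, -3.49 and -4.08 in time order, miR-3082-5p -0.74 at 6 h, miR-5128 -2.20 at 12 h and miR-1906 0.92 at 48 h, all opposite in sign to their own probes. With spike-in scaling, sums were 0.77 at 12 h, 0.34 at 24 h and -0.41 at 48 h, medians 0.37, 0.53 and -1.02, and miR-3082-5p and miR-5126 came to -0.074 and -0.15 at 48 h. With the 75th percentile, sums were 1.05, 1.19, 0.27 and 0.76, and medians 0.79 at 12 h and 0.46 at 24 h. With quantile normalization, shares were 14.6% in sham and 29.1% at 6 h, sums 1.00, 0.64, 0.24 and 0.26, medians 0.17, 0.13 and 0.21 at 6, 12 and 24 h, members below 2 at 12 h and 2 at 24 h, and members above 4 at 48 h. With 1 effective feature size, sums were 1.45 at 12 h and 1.06 at 24 h and the median at 12 h was 1.05. With normexp, the difference was 0.091 at 6 h and 0.42 at 12 h, medians 0.20, 0.49 and 0.58 at 6, 12 and 24 h, members above 7, 9, 1 and 2, and members below 0 at 6 and 0 at 48 h. With the processed table, medians were 0.26, 0.19 and 0.23 at 6, 12 and 24 h and members below 5, 4 and 4.

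With a 3-fold limit, members above were 9, 11, 1 and 3 and members below 0 at 6 h and 0 at 48 h. With the 5 miRNAs left out added, shares were 55.2, 56.7, 64.8, 56.9 and 62.4% and sums 0.28, 1.17, 1.12 and 0.38. Without miR-5109, shares were 10.3, 18.1, 16.0, 12.8 and 11.4% and sums 1.06, 1.57 and 0.36 at 6, 12 and 48 h. With the 5 out of the total, shares were 22.1, 38.7, 40.01, 27.4 and 31.2%. Chosen after seeing the data were leaving out the top 3 members, with shares 5.30, 6.91, 7.91, 6.90 and 5.11% and sums 0.63, 1.51 and 0.15 at 6, 12 and 48 h, and splitting by probe composition, with a difference of 0.92 at 48 h under 60% G or C. Signal over background limits what dim members show, since a detected probe may exceed its error by as little as 3.04 times.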
